A study of Mus musculus with 16 samples.

Results

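The cells described here are the cells of the small intestine, nearly all of them epithelial, in which immediate-early genes took the largest share of the transcripts. Members were chosen by a score, the summed UMIs of *Atf3*, *Fosb*, *Fos*, *Nr4a1*, *Plk3*, *Egr1*, *Jun* and *Cxcl10* divided by all UMIs of the cell, where a UMI (unique molecular identifier) marks 1 captured transcript. The 180 cells with the highest score among the 1961 cells with at least 900 UMIs were taken, out of 2597 cells in all. Of these members, 93 were WT and 87 were ROBO. The other 1781 cells that passed the minimum, 900 WT and 881 ROBO, are called the other cells.

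Cells came from crypt-enriched small intestine of outbred mice at postnatal day 16, untreated, either wild type (WT) or ROBO. ROBO mice were heterozygous for Villin-Cre, which recombines in the intestinal epithelium, and for the ROBO Crainbow transgene, which is driven by the CAG promoter in the ROSA locus. Before recombination the transgene expresses an inert fluorescent control, and a recombined cell expresses a fluorescent protein together with RSPO3 or a PTPRK-RSPO3 fusion, so ROBO tissue is a mosaic, and the matrices do not tell which position a cell expressed. The labels list 8 samples per genotype, but the cells are deposited as 1 matrix per genotype with no link to a sample or mouse. Each genotype was therefore 1 pooled sample, no test between conditions was possible, and all intervals are 95% intervals for counting error alone. All cells of both genotypes had been dissociated with trypsin, Collagenase/Dispase, DNase I and the caspase inhibitor Q-VD-OPH, so transcripts made in the tissue and transcripts made during dissociation cannot be told apart.

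Immediate-early genes are transcribed within minutes of a stimulus, from factors that are already in the cell, and need no new protein synthesis. Growth factors acting through the ERK pathway and serum response factor, cyclic AMP acting through CREB, and many kinds of cell stress, tissue dissociation among them, are known to switch them on. Their products are AP-1 subunits (Fos and Jun proteins), zinc-finger and nuclear-receptor factors (Egr1, Nr4a1), and inhibitors that end the response, such as the phosphatase Dusp1 and the mRNA-destabilising protein Zfp36. In the intestine, AP-1 and Egr1 respond to growth factors and to injury, and Cxcl10 is a chemokine that attracts T cells.

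The sequences just upstream of 6 of these genes are shown with their matches to 6 motifs known from promoters. Of exact matches to these motifs, *Fos* held only a TATA and a GC box and *Atf3* only GC boxes. Variant or partial sites, and sites further upstream, were not searched. A window without a match may therefore still hold a site tied to a signal. They are the 250 bases before the RefSeq start (GRCm38.p6), written 5′ to 3′ on the strand of the gene in lower case. Capitals mark every match, on either strand, to 6 motifs, and where matches overlap or touch, the capitals run on. The cyclic AMP response element (CRE), known to be bound by CREB and related proteins, was searched as TGACGTCA. The motif of AP-1, the dimer of Fos and Jun proteins, was searched as TGACTCA. The TATA element, which places the start of transcription in some core promoters, was searched as TATAAA. The GC box, which is known to be bound by Sp1 and is common in promoters, was searched as GGGCGG. The CArG box, the site of serum response factor, and the interferon-stimulated response element (ISRE, a pair of TTTC copies with any 2 bases between) were searched as well. The windows lie at chr12:85473640-85473889 (plus strand), chr1:191183334-191183583 (minus strand), chr5:92348890-92349139 (minus strand), chr7:28379229-28379478 (minus strand), chr17:26508473-26508722 (minus strand) and chr1:134079156-134079405 (minus strand).
Fos: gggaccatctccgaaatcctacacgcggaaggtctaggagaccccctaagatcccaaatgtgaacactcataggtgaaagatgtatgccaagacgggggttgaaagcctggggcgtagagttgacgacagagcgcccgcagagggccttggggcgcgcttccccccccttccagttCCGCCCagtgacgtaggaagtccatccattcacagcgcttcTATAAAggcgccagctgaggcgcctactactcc
Atf3: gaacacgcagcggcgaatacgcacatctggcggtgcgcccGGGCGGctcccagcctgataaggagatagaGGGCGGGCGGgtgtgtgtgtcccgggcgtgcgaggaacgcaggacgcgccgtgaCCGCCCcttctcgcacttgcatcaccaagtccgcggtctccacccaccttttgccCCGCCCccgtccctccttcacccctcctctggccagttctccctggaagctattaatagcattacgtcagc
Cxcl10: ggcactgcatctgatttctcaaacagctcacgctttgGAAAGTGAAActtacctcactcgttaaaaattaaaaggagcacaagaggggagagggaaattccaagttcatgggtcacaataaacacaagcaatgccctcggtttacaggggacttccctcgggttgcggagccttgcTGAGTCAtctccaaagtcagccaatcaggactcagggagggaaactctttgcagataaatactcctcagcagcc
Zfp36: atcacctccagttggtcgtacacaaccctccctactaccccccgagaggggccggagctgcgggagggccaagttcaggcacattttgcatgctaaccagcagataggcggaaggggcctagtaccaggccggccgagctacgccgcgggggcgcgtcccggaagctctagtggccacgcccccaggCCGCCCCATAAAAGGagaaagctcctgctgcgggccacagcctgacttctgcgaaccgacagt
Dusp1: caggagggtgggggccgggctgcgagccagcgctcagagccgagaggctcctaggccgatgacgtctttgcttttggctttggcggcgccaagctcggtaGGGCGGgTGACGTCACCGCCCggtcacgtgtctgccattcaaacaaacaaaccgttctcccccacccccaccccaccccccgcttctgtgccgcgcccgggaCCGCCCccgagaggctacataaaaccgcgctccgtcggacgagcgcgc
Btg2: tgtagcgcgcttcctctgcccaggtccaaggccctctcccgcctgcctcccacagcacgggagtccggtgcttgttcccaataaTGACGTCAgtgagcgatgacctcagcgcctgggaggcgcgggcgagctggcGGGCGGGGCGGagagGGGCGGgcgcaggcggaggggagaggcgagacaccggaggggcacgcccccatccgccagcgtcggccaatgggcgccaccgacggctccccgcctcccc

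Counted back from the start, the *Fos* window holds a TATA match from -33 to -28 and a GC box from -74 to -69. The *Cxcl10* window is the exception among the 7 rule genes with a window, since it holds no GC box but an ISRE match from -213 to -204 and an AP-1 match from -74 to -68. A CArG box lies from -58 to -49 before *Zfp36*, and CRE matches lie from -143 to -136 before *Dusp1* and from -166 to -159 before *Btg2*. *Atf3* has 5 GC boxes, of which those from -180 and from -176 overlap. Over all 32851 windows of the same length, 1.55% held a CRE, 4.46% AP-1, 1.47% a CArG box, 12.4% TATA, 32.7% a GC box and 2.98% an ISRE. Of the 22 feedback and ligand genes described further on that have a window, 6 held a CRE (*Dusp1*, *Dusp8*, *Errfi1*, *Btg2*, *Areg*, *Plk2*), and of the 15 further immediate-early factors with a window, 1 did (*Maff*). Of the 7 rule genes 0 held an exact CRE match. A GC box was found for 6 of the 7 rule genes, 13 of those 15 factors and 19 of those 22 genes. In the same order, a CArG box was found for 0, 1 (*Egr2*) and 2 (*Dusp5*, *Zfp36*) and AP-1 for 1 (*Cxcl10*), 1 (*Csrnp1*) and 0. TATA was found for 1, 1 and 6 and an ISRE for 1, 1 and 2. These matches describe the sequence and were not tested for binding.

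The score itself ran without a gap. Members scored between 78.1 and 244 rule UMIs per 10000 UMIs, with a median of 106, while the median of the other cells was 11.2. The lowest member stood at 78.1 and the highest other cell at 77.7. A single rule UMI fewer would have put 24 members below that cell, and a single rule UMI more would have brought in 22 other cells. The members are thus the upper end of a range of scores, and whether they hold a separate type was not tested. A member carried between 8 and 103 rule UMIs, with a median of 18, from a median of 5 of the 8 rule genes. The median was 105.9 in WT members and 105.5 in ROBO members.

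The rule genes, whose values chose the members and are given as a description only, contributed very unequally. *Fos*, an AP-1 subunit, made up 35.6% of the rule UMIs in members, and its partner *Jun* 23.8%. The stress-induced factor *Atf3* stood at 15.2 UMIs per 10000 in WT members and 12.1 in ROBO members, against 1.10 and 1.39 in the other cells of each genotype. *Fosb*, a further AP-1 subunit, stood at 8.43 in WT and 8.96 in ROBO members, against 0.613 and 0.688. The orphan nuclear receptor *Nr4a1* stood at 6.48 and 5.93, against 1.03 and 0.634. *Egr1* was seen in 146 of the 180 members, *Plk3*, a stress-regulated kinase, in 71, and *Cxcl10* in 18. *Cxcl10* therefore made up only 0.832% of the rule UMIs, and a score without it picked 179 of the same 180 cells. A score without *Fos* and *Jun* picked 124 of them. The choice also rested on depth, since 96 of the 180 were picked with no minimum of UMIs and 95 with at least 1500 UMIs. *Atf3* stood at 13.3 UMIs per 10000 in the 18 members with *Cxcl10* and at 13.8 in the other 162. When the UMIs of every cell were split at random into 2 equal sets, members were chosen on 1 set and levels were read from the other, the log2 ratio of members over other cells was 2.22 for *Fos*, 3.51 for *Atf3*, 3.21 for *Fosb* and 2.14 for *Jun*. In the full counts these were 2.53, 3.47, 3.74 and 2.46.

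Genes outside the rule that belong to the same early response were higher in the members too. A list of 22 other immediate-early transcription factors and response genes summed to 44.0 UMIs per 10000 in WT members and 44.9 in ROBO members, against 13.6 and 14.8 in the other cells. The ratio was 1.65 on the log2 scale (95% interval 1.57 to 1.73). Across all cells with at least 900 UMIs, divided by the rule score into 10 bins of equal size, the level of this list was higher in every bin than in the bin before, from 6.93 UMIs per 10000 in the lowest to 43.8 in the highest. The interval of bin 9, 27.2 to 30.4, did not reach that of bin 10, 41.7 to 45.9. Bin 10 held 196 cells, all 180 members among them. Cell by cell, Spearman's rho between the score and the list was 0.57 over the 1961 cells and 0.33 within the members, a description over cells that share library and depth. Of the members, 82 exceeded the 95th percentile of the other cells, and 1 member had no UMI of the list.

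**Figure D1:**
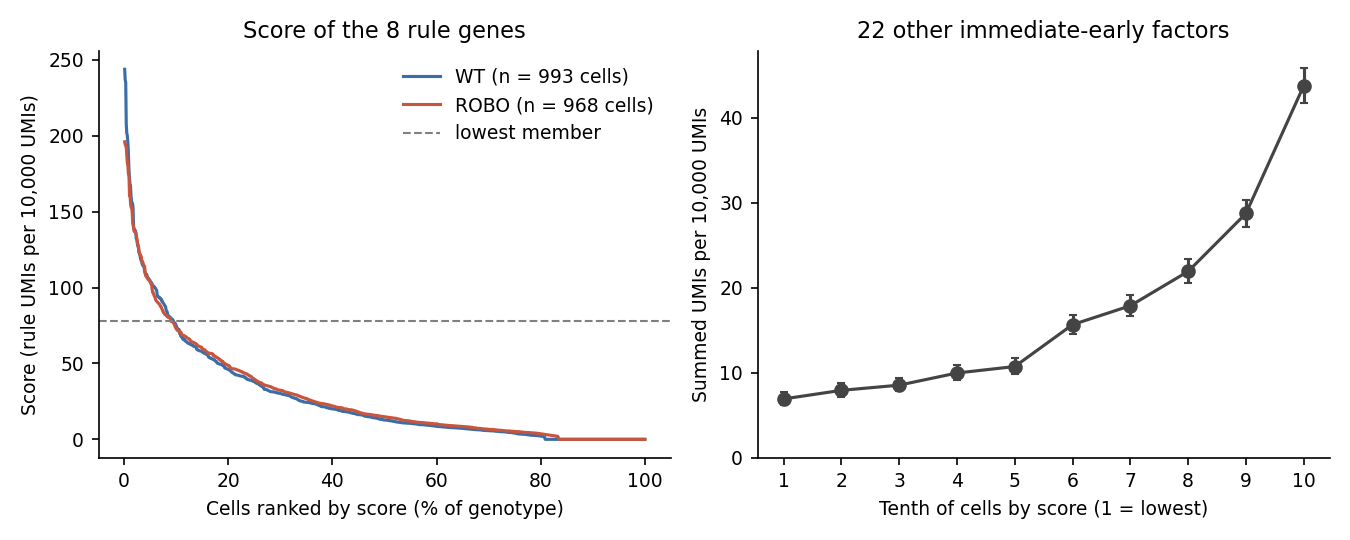
Left, score (rule UMIs per 10000 UMIs) of every cell with at least 900 UMIs, ranked within WT (blue, 993 cells) and ROBO (red, 968 cells), with the lowest member (78.1) as a dashed line. Both curves fall without a step at the line. Right, summed UMIs of 22 immediate-early factors outside the rule per 10000 UMIs, in 10 bins of cells by score, with 95% Poisson intervals, from 6.93 to 43.8.

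Among single genes, 8833 had at least 50 UMIs over members and other cells together. Of these, 313 (3.54%) were at least 2-fold higher in members and 583 (6.60%) at least 2-fold lower. The interval left out 0 for 287 and 247 of them. Of the 22 other immediate-early factors, 19 reached 50 UMIs and 16 of these were at least 2-fold higher, with a median log2 ratio of 1.68 where the median over all genes tested was -0.09. None was at least 2-fold lower.

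*Junb*, an AP-1 subunit that is not in the rule, stood at 11.01 UMIs per 10000 in WT members and 10.03 in ROBO members, against 2.36 and 2.44 in the other cells. Its log2 ratio was 2.14 (1.96 to 2.31), and 131 members had a UMI of it. *Ier2*, a short-lived nuclear protein of the early response, stood at 8.38 and 9.43 in members, against 3.05 and 3.21, a log2 ratio of 1.504 (1.32 to 1.68). *Klf4*, a zinc-finger factor of differentiated intestinal epithelium, stood at 4.78 and 3.97 against 0.948 and 1.07, a log2 ratio of 2.13 (1.86 to 2.39). In these 3 genes the members of either genotype lay above the other cells of both. The largest ratios of the list came from sparse genes. *Arc*, known from neurons, had a log2 ratio of 2.87 (2.01 to 3.70) on 21 UMIs in members, the nuclear protein gene *Csrnp1* 2.71 (2.04 to 3.36) on 32 UMIs, and *Klf2* 2.16 (1.26 to 3.00) on 17 UMIs. The exceptions were *Klf10* at 0.82, *Crem* at 0.09, whose UMIs came from 2 members, and the proto-oncogene *Myc*, an early gene in many cultured cells, at -0.55 (-1.15 to 0.00).

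The genes that restrain the response, or carry it to neighbouring cells as growth-factor ligands, were higher as well. The list of 30 summed to 59.0 UMIs per 10000 in WT and 57.1 in ROBO members, against 18.3 and 19.9, and 14 of the 20 genes tested were at least 2-fold higher, with a median log2 ratio of 1.39. *Dusp1*, the phosphatase that inactivates MAP kinases and whose CRE match is shown among the sequences, stood at 6.33 in WT and 7.00 in ROBO members, against 0.939 and 1.01. Its log2 ratio of 2.77 (2.53 to 3.00) was the largest of the list. *Zfp36* (tristetraprolin), which destabilises early mRNAs and whose CArG box is shown, stood at 14.2 and 13.0 against 3.24 and 3.89, a log2 ratio of 1.94 (1.79 to 2.09). *Btg2*, an antiproliferative gene, had a log2 ratio of 1.54 (1.31 to 1.77) and its relative *Tob1* 1.38 (1.16 to 1.59). Of the secreted products, the EGF receptor ligand *Hbegf* stood at 4.53 in WT and 3.92 in ROBO members, against 0.823 and 0.862, a log2 ratio of 2.33 (2.05 to 2.61). The matricellular gene *Cyr61* stood at 4.17 and 3.62 against 0.881 and 0.814, a log2 ratio of 2.20 (1.91 to 2.49). *Areg*, a further EGF receptor ligand, had a log2 ratio of 1.78 (1.40 to 2.14). The ERK antagonists *Spry2* and *Spred1* had log2 ratios of 0.06 and -0.29 on 6 UMIs each in members, *Ctgf* was at 0 UMIs in members and had 2 in other cells, and *Ptgs2* was at 0 in both.

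**Figure D2:**
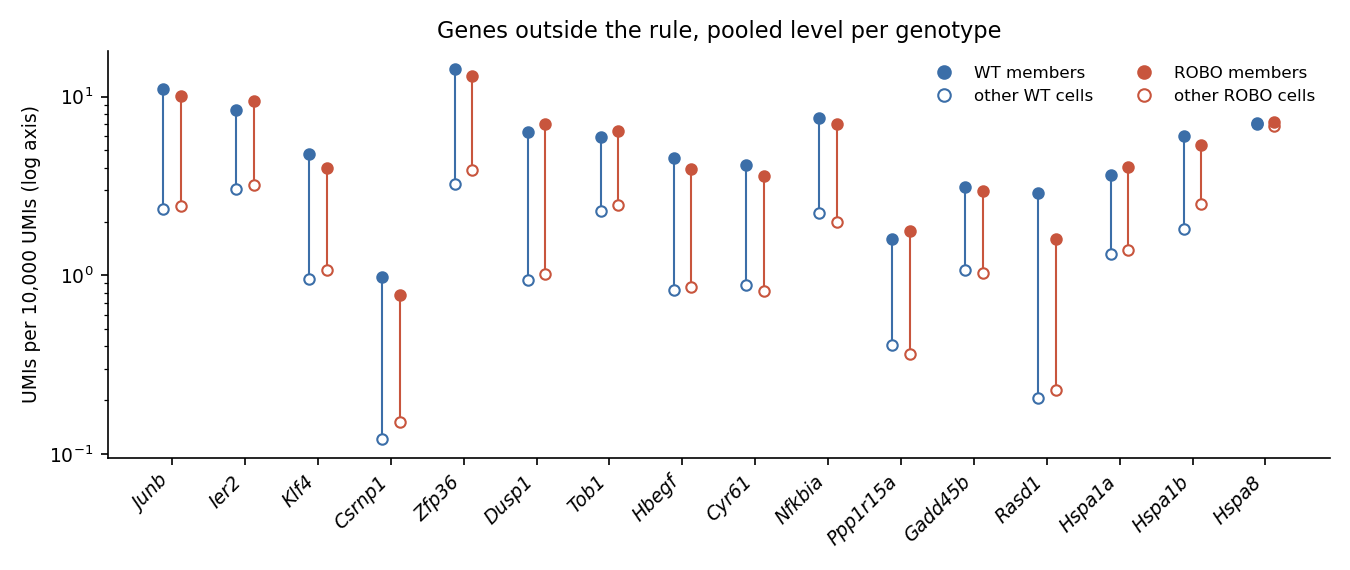
Level in UMIs per 10000 UMIs (log axis) of 16 genes outside the rule in members (filled) and other cells (open) of WT (blue) and ROBO (red), each a pooled level with no replicates. In every gene but *Hspa8* members of both genotypes lie above the other cells; *Hspa8* lies at 7.05 and 7.13 in WT and at 7.24 and 6.88 in ROBO.

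Other stress programs differed less. Over all genes tested, 3.54% were at least 2-fold higher. Among 16 heat-shock genes, 4 of the 14 tested were at least 2-fold higher, and the median log2 ratio was 0.31. These were the inducible Hsp70 genes *Hspa1a*, at 1.51 (1.23 to 1.78), and *Hspa1b*, at 1.40 (1.18 to 1.62), the co-chaperone *Dnajb1*, at 1.07 (0.62 to 1.49), and *Bag3*, at 1.03 on 16 UMIs. *Hspa1a* and *Hspa1b* are near-identical copies, so the split of reads between them is uncertain. The constitutive chaperones *Hspa8* and *Hsp90ab1* had log2 ratios of 0.03 (-0.16 to 0.21) and -0.10 (-0.21 to -0.00), and *Hspd1*, a mitochondrial chaperone, -0.65 (-0.99 to -0.33).

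Against 3.54% over all genes tested, 2 of 17 tested genes on a list of 20 for the integrated stress and unfolded protein responses were at least 2-fold higher. They were *Ppp1r15a* (GADD34), which reverses the block of translation, at 2.12 (1.67 to 2.55), and *Ddit3* (CHOP), at 1.66 (1.18 to 2.11). The central factor *Atf4* had a log2 ratio of 0.80 (0.60 to 1.00), and the endoplasmic reticulum chaperones *Hspa5* and *Calr* 0.55 and 0.33. Of 20 p53 target and DNA damage genes, 5 of 13 tested were at least 2-fold higher, led by *Gadd45b* and the BH3-only gene *Pmaip1*, both at 1.54, with *Gadd45g* at 1.39, *Trp53inp1* at 1.19 and the cell-cycle inhibitor *Cdkn1a* at 1.02. *Mdm2* (0.42), *Ccng1* (0.00) and *Bax* (-0.12) differed less than 2-fold, and *Rps27l* was lower, at -0.53. Set against other cells of their own cluster, as described further on, 2 of these 13 were past 2-fold (*Pmaip1*, 1.56, and *Gadd45b*, 1.31). The genes of the p53 list past 2-fold include stress-induced genes that other pathways also control, and which pathway raised them was not tested.

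Among 25 chemokine and NF-kB target genes, 4 of 12 tested were at least 2-fold higher. *Nfkbia*, the NF-kB inhibitor that is itself an NF-kB target, stood at 7.56 UMIs per 10000 in WT members and 7.00 in ROBO members, against 2.22 and 1.99, a log2 ratio of 1.79 (1.59 to 1.99). *Tnfaip3* had 1.74, *Nfkb2* 1.65 and *Ccl20* 1.39, all on fewer than 50 UMIs in members. *Ccl25*, a chemokine of the resting small intestine, had -0.46 (-0.68 to -0.25). *Cxcl10* is also an interferon target, and what raised it was not tested. Of 18 tested interferon-stimulated genes 1 (*Tap1*, 1.10) was at least 2-fold higher and 1 (*Ifitm2*, -1.29) at least 2-fold lower. Over all genes tested these shares were 3.54% and 6.60%. The list summed to 30.03 UMIs per 10000 in members and 31.3 in other cells, a log2 ratio of -0.06 (-0.15 to 0.03), with *B2m* at -0.16, *Psmb8* at 0.19, *Irf1* at 0.34 and *Oasl2* at 0.86 (-0.21 to 1.78). Of 12 tested oxidative stress genes, 1 was at least 2-fold higher (*Osgin1*, 1.62), and *Sqstm1* (0.91), *Mt2* (0.79), *Mt1* (0.43), *Txn1* (-0.18) and *Gsr* (-0.93) were not past 2-fold. Within the 7 clusters described further on, however, *Mt2* was at least 2-fold higher in 6, with log2 ratios between -0.50 and 2.86. *Sqstm1* was so in 3, *Mt1* in 1, and *Txn1* and *Gsr* in none. No apoptosis regulator of 12 tested was at least 2-fold higher. *Casp4* had a log2 ratio of 0.98 (-0.04 to 1.87), *Xiap* 0.51, *Mcl1* 0.37 and *Bid*, the only member of that list past 2-fold lower, -1.22 (-2.87 to 0.04). None of 83 tested cytosolic ribosomal protein genes was past 2-fold, with a median of -0.18 (*Rps12* -0.10, *Rplp1* -0.19, *Rpl36al* -0.73). Together these genes took 12.4% of the UMIs of members and 13.9% of those of other cells.

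**Figure D3:**
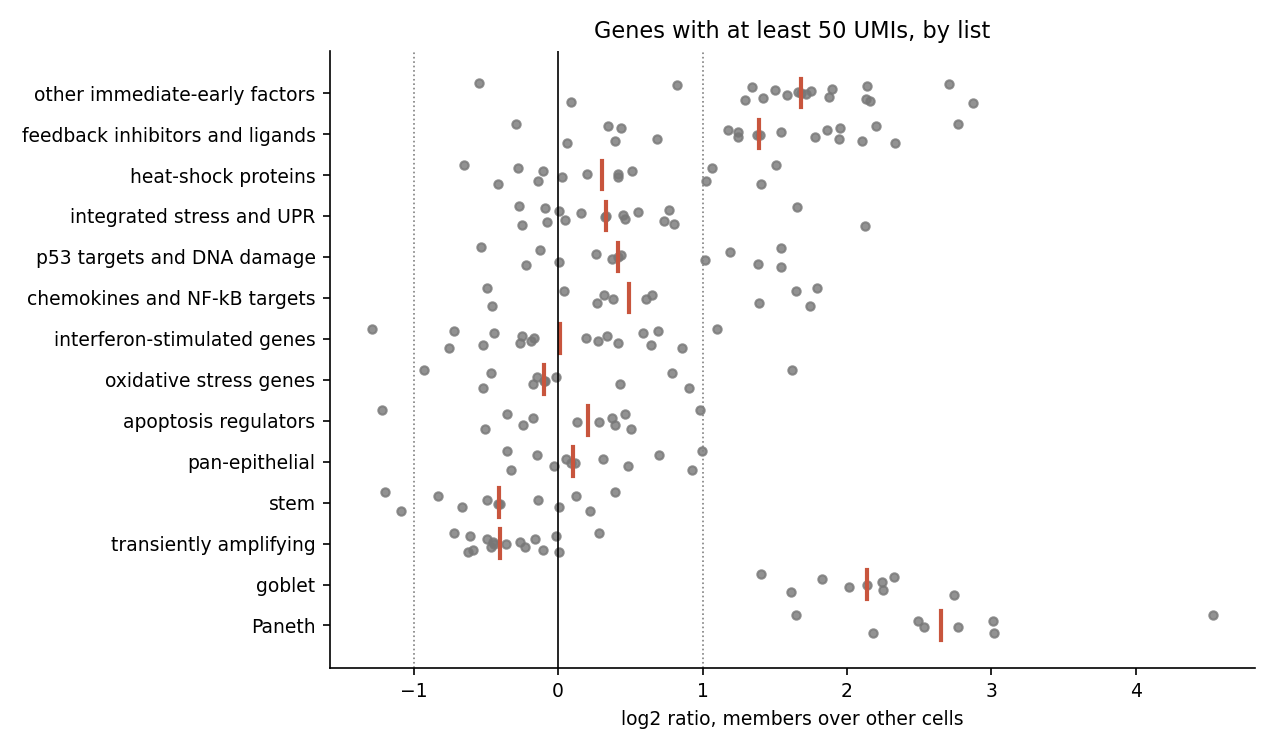
log2 ratio of members over other cells (horizontal axis) for genes with at least 50 UMIs in all and at least 1 in members, by list. Each point is a gene, red bars are list medians, and dotted lines mark 2-fold. The medians of both immediate-early lists are 1.68 and 1.39, those of the goblet and Paneth markers 2.14 and 2.65, and the other medians shown lie between -0.41 and 0.49.

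Most members carried the genes that define epithelium. Of 180 members, 175 had 5 or more UMIs of the 12 pan-epithelial markers, as did 1719 of the 1781 other cells. These markers summed to 128 UMIs per 10000 in members and 111 in other cells, and none of the 12 was past 2-fold in either direction. *Epcam* had a log2 ratio of -0.36, *Krt8* 0.31 and the epithelial factor *Elf3* 0.99. Of 18 immune markers, 6 were at 0 in the members, and the list summed to 1.74 UMIs per 10000 against 9.81. There were 175 members without any UMI of it, and 2 had 5 or more, of which 1 cell held all 25 UMIs of the class II gene *H2-Aa*. Of 10 fibroblast markers 7 were at 0 in members, of 6 endothelial and muscle markers 5, of 7 tuft markers 5, and all 5 erythroid markers were at 0 in members and other cells. Scrublet called 5 doublets (1 WT, 4 ROBO), none of them a member. The median was 1577 UMIs per member and 2020 per other cell. The share of members was 14.3% (70 of 490 cells, 11.3 to 17.7%) in the shallowest of 4 depth groups and 6.31% (31 of 491, 4.33 to 8.84%) in the deepest. After thinning every cell to 900 UMIs, these shares were 11.8% and 7.54%, and 145 of the 180 members were picked again.

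Secretory genes took most of the largest ratios outside the lists. Of the 149 genes outside the rule that were at least 2-fold higher in WT and in ROBO alone, the 10 largest were the pentraxins *Mptx2* (5.24) and *Mptx1* (4.53), *Thbs1* (4.34), the goblet and enteroendocrine lectin *Reg4* (3.77), the chemokine *Ccl6* (3.59), *Rasd1* (3.40), and the defensin-family genes *Gm15315* (3.32), *Defa26* (3.20), *AY761184* (3.02) and *Defa24* (3.01). Defensin and pentraxin genes have near-identical copies, so the counts of each are uncertain. The UMIs of most of these lay in few cells. A single member held 82.8% of the *Mptx2* UMIs, 42.7% of those of *Mptx1* and 42.0% of those of *AY761184*. *Mptx2* rested on 3 UMIs in ROBO members, where its log2 ratio was 1.88 (-0.62 to 3.84), against 5.58 in WT. *Rasd1*, a Ras-related gene induced by glucocorticoids and cyclic AMP, was different, with 83 UMIs over 49 members, of which no member held more than 6.02%. It stood at 2.88 UMIs per 10000 in WT and 1.60 in ROBO members, against 0.206 and 0.228 in the other cells. *Thbs1*, an extracellular matrix gene and known serum response target, had 36 UMIs in 9 members, of which 20 were in WT and 16 in ROBO, so that neither genotype alone reached 50 UMIs with the other cells included. All 9 goblet and all 8 Paneth markers were at least 2-fold higher in members, but 96.6% and 96.7% of the UMIs of these lists in members came from the 22 members of a cluster led by *Zg16*, *Fcgbp* and *Mptx1*.

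The largest ratios in the other direction were those of genes with few or no UMIs in members. The lymphocyte genes *Gzma* (1 UMI in members and 1713 in other cells, log2 ratio -7.18, -12.5 to -4.70), *Ccl5* (0 and 688) and *Gzmb* (0 and 461), the hormone *Gip* (2 and 1398, -5.88, -8.93 to -4.03) and the matrix gene *Sparc* (2 and 181, -2.93, -5.99 to -1.06) were among the 10. Against the other cells of its own clusters *Sparc* was at -0.62, under 2-fold. Set at 3 counts in members, *Ccl5* and *Gzmb* had bounds of -4.27 and -3.70. These ratios rest on which cells were chosen: with the 360 highest cells *Gip* was at 0.97, *Ccl5* at 0.079 and *Gzmb* at 0.75, and with a score without *Fos* and *Jun* *Gzma* was at 1.07, *Ccl5* at 1.60 and *Gzmb* at 2.18. The other 5, on 2 to 4 UMIs in members, were *Reg3a* (-2.86, -5.92 to -0.99), *Rnf139* (-2.49, -5.55 to -0.61), *Rsrc1* (-2.42, -5.48 to -0.54), *Ung* (-2.36, -4.65 to -0.79) and *Fam76b* (-2.35, -4.24 to -0.98). The median log2 ratio was -0.41 over 12 stem markers, of which 2 were at least 2-fold lower (*Igfbp4*, -1.20, and *Sfrp5*, -1.09 on 6 UMIs), while *Lgr5* stood at 0.00. It was -0.40 over 16 markers of transiently amplifying cells, none of which was past 2-fold (*Pcna* -0.72, *Mki67* -0.46). Over all genes tested the median was -0.09, and 6.60% were at least 2-fold lower. Against the other cells of the same clusters the stem and transiently amplifying medians were -0.20 and -0.21.

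When all cells were clustered, 58 of the 180 members (32.2%) fell into 1 of 14 clusters, of 132 cells, led by *Cxcl10*, *Fosb*, *Atf3*, *Hbegf* and *Epha2*. These 58 made up 70.7% of the 82 cells of that cluster that passed the minimum of UMIs. The rule genes were themselves among the genes used for that clustering, so it is no independent view of the members. With the 8 rule genes left out of the variable genes there was no such cluster among the 12 found, and 86 of the 132 cells moved to a cluster led by *Cubn*, *Gm2061* and *Lect2*, with 7 raised enterocyte markers. Members were then spread over 10 of the 12 clusters.

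By these clusters, the share of members among cells with at least 900 UMIs ranged from 0 to 28.6%, where it was 9.37% (93 of 993, 7.63 to 11.4%) in WT and 8.99% (87 of 968, 7.26 to 10.97%) in ROBO over all clusters. It was highest in enteroendocrine-like cells (*Chgb*, *Gip*, *Chga*), at 28.6% (6 of 21 cells, 11.3 to 52.2%), and in the goblet-like and Paneth-like cells (*Zg16*, *Fcgbp*, *Mptx1*), at 24.2% (22 of 91, 15.8 to 34.3%). It was 15.3% (44 of 288, 11.3 to 19.96%) in the *Cubn* cluster, 14.1% (28 of 199, 9.56 to 19.7%) in the cluster led by *Reg1* and *Gsdmc4*, and 11.6% (17 of 146, 6.93 to 18.0%) in that led by *Rn45s* and *Mcm5*. The cluster led by *Gpx3* and *Mfi2*, with 11 raised markers of top enterocytes, had 8.97% (14 of 156). The clusters led by *Igfbp4* and *Dmpk* and by *Sfrp5* and *Fgfbp1* had 6.44% (23 of 357, 4.13 to 9.51%) and 5.83% (21 of 360, 3.65 to 8.78%). At the low end was the cluster led by *Sis* and *Aldh1a1*, with 2 of 118 cells, and the cells led by *Myl7*, *Reg3g* and *Reg3b*, with 0 of 181, where 3 counts would be 1.66%. The intervals of the *Zg16*, *Cubn* and *Reg1* clusters did not overlap those of the *Sfrp5*, *Sis* and *Myl7* clusters. The median was 3057 UMIs in the *Myl7* cluster and 3026 in the *Sfrp5* cluster, and the part of depth in these shares was not tested. The immune-like cluster (*Gzma*, *Ccl5*) held 3 members of 37 cells, so not all members are epithelial-like, and the fibroblast-like cluster (*Dcn*, *C3*) none of 7.

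**Figure D4:**
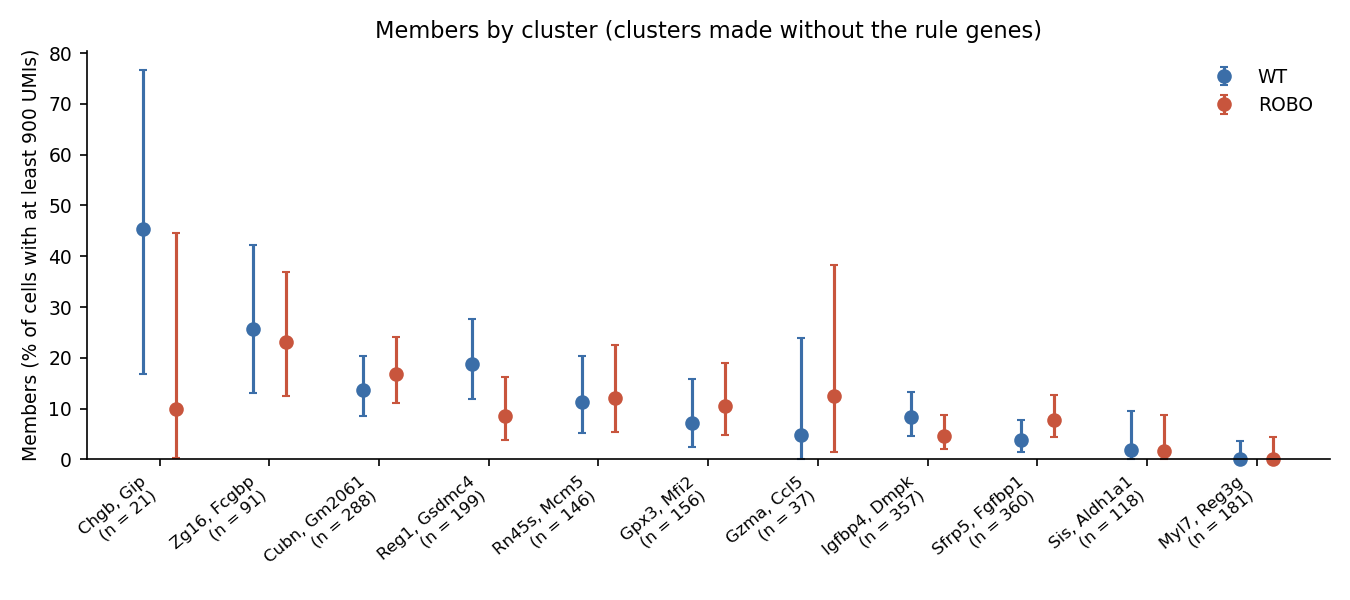
Members as a percent of cells with at least 900 UMIs, by cluster of the clustering without the rule genes (named by its first 2 leading genes, n cells; the 7 cells led by *Dcn* are left out), in WT (blue) and ROBO (red), with exact 95% intervals for counting error. The share runs from 28.6% in the *Chgb* cluster, both genotypes together, to 0 of 181 cells in the *Myl7* cluster.

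The early-response genes outside the rule were higher in members within each of the 7 clusters that held at least 14 of them. The 22 immediate-early factors had log2 ratios of members over other cells of the same cluster between 1.19, in the *Rn45s* cluster, and 2.06, in the *Cubn* cluster, and every interval lay above 0. The members' levels ran from 32.2 UMIs per 10000 in the *Sfrp5* cluster to 52.3 in the *Reg1* cluster, while those of the other cells lay between 11.6 and 15.1. The list of 30 feedback and ligand genes had log2 ratios between 1.35 and 1.82. *Junb* (1.39 to 2.74), *Ier2* (1.17 to 2.24), *Klf4* (1.37 to 3.14), *Zfp36* (1.52 to 2.64), *Cyr61* (1.51 to 2.83) and *Nfkbia* (1.12 to 2.21) were at least 2-fold higher in all 7, each with its interval above 0. *Tob1* was past 2-fold in 5 of the 7, with a lowest log2 ratio of 0.62. *Dusp1* and *Hbegf* were past 2-fold in the 6 and 5 clusters where they reached 20 UMIs.

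The heat-shock list differed less within clusters, with log2 ratios between 0.08 and 0.72, and its inducible Hsp70 genes were uneven. *Hspa1a* stood at 6.87 UMIs per 10000 in members of the *Cubn* cluster against 1.18 in its other cells, a log2 ratio of 2.55 (2.03 to 3.07), and at 11.8 against 1.57 in the *Rn45s* cluster, a log2 ratio of 2.91 (2.08 to 3.73). In the *Reg1* cluster members stood at 1.32 and other cells at 2.12, a log2 ratio of -0.69 (-2.04 to 0.41), and in the *Zg16* cluster at 1.79 and 1.75. The interval of the *Reg1* cluster did not overlap those of the *Cubn* and *Rn45s* clusters. *Hspa1b*, which can share reads with it, was at -0.12 (-0.83 to 0.52) in the *Reg1* cluster and at 2.28 (1.44 to 3.14) in the *Zg16* cluster. *Cxcl10* was also uneven, with 22 of its 35 UMIs in members in the *Cubn* cluster and 0 in the *Zg16* cluster, although it is a rule gene and sparse. The level in the *Cubn* cluster was 2.40 UMIs per 10000 (1.503 to 3.63).

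**Figure D5:**
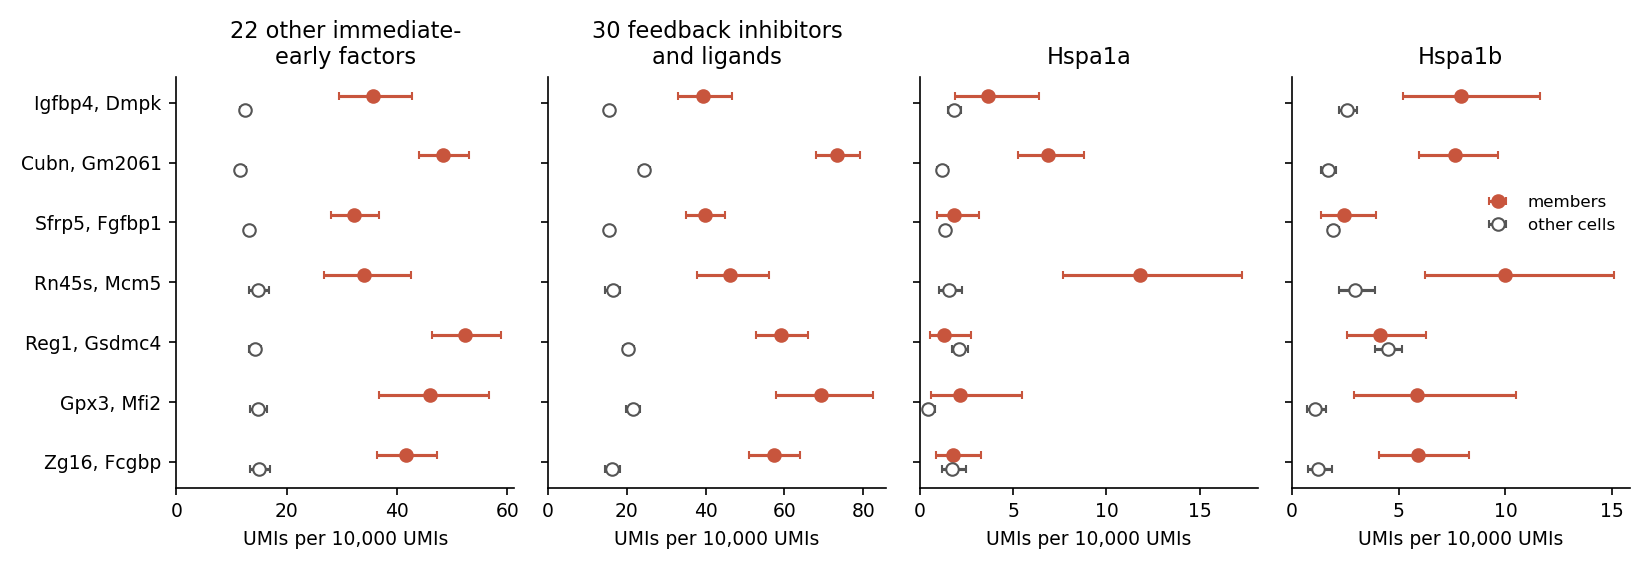
Summed UMIs per 10000 UMIs in members (filled red) and other cells (open) of each of 7 clusters (rows, first 2 leading genes) for the 22 other immediate-early factors, the 30 feedback and ligand genes, *Hspa1a* and *Hspa1b*, with 95% Poisson intervals. Members lie above other cells in every cluster in the left panels, but in the *Reg1* cluster *Hspa1a* stands at 1.32 in members and 2.12 in other cells.

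Setting each member against the other cells of its own cluster took the makeup of clusters into account over all genes, though not fully that of cell types. These clusters left out only the 8 rule genes, of the 71 rule and stress-list genes among the variable genes. Goblet-like and Paneth-like cells shared 1 cluster. Of the 8833 genes, 259 (2.93%) were then at least 2-fold above the expected level and 539 (6.10%) at least 2-fold below. Of the immediate-early factors 14 of 19 were then past 2-fold, with a median of 1.58, and of the feedback and ligand genes 14 of 20, with 1.38. The median of the goblet markers went from 2.14 to 0.41 and that of the Paneth markers from 2.65 to 1.10. Within the secretory cluster itself, Paneth markers summed to 663 UMIs per 10000 in members and 269 in other cells, and goblet markers to 978 and 803. Single cells weighed on these sums. Over all members, 1 cell held 84.2% of the UMIs of the goblet marker *Zg16*, and 1 cell 42.7% of those of the Paneth marker *Mptx1*. Apart from the lists, and chosen after their values were seen, the vasoconstrictor peptide gene *Edn1* was 2.84 above the level expected from its clusters on the log2 scale (80 UMIs in 40 members), *Bmp2* 2.64 (19 UMIs), the pseudokinase *Trib1* 2.24 (68 UMIs), the phosphatase regulator *Ppp1r10* 2.17 (45 UMIs) and the ephrin receptor *Epha2* 2.06 (132 UMIs in 65 members).

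Members were about as frequent in both genotypes. The share in ROBO was 0.378 percentage points lower than in WT (difference -0.378, Newcombe 95% interval -2.94 to 2.20). By cluster, the difference of ROBO minus WT had an interval that left out 0 in 1 of the 12 clusters, that of *Reg1* and *Gsdmc4*, with 20 of 106 WT cells and 8 of 93 ROBO cells (-10.3 points, -19.7 to -0.494). In the matching cluster of the clustering with the rule genes, it was -5.43 points (-14.8 to 4.09). Among enteroendocrine-like cells 5 of 11 WT and 1 of 10 ROBO cells were members (-35.5 points, -63.2 to 3.40). These are few cells, and with 1 pooled sample per genotype none of these differences by cluster could be tested.

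Within the members, the summed early-response lists differed little between ROBO and WT. The log2 ratio of ROBO over WT members was 0.03 (-0.11 to 0.17) for the 22 immediate-early factors, -0.05 (-0.17 to 0.08) for the feedback and ligand genes and -0.02 (-0.14 to 0.11) for the heat-shock genes. None of the 30 genes of these 3 lists with at least 50 UMIs in members was past 2-fold. The rule genes chose the members by their sum, so their ratios within members are a description only. Among them, *Fos* had 0.30 (0.15 to 0.45), *Jun* -0.39 (-0.57 to -0.20) and *Atf3* -0.33 (-0.59 to -0.06). In the other cells the log2 ratios of ROBO over WT were 0.19 (0.08 to 0.29), 0.03 (-0.09 to 0.15) and 0.33 (0.08 to 0.58). The oxidative stress list was lower in ROBO members, at -0.43 (-0.54 to -0.32), with the metallothionein *Mt2* at -1.17. In the other cells this list was also lower in ROBO, at 63.3 UMIs per 10000 against 73.0 in WT, and *Mt2* had a log2 ratio of ROBO over WT of -0.65 (-0.75 to -0.54). The interferon-stimulated genes were at 0.23 (0.05 to 0.40) in ROBO over WT members. *Junb* had -0.13 (-0.43 to 0.16), *Dusp1* 0.15 (-0.23 to 0.52) and *Hspa1a* 0.14 (-0.36 to 0.64). Of all 1371 genes with at least 50 UMIs in members, 28 (2.04%) were at least 2-fold higher in ROBO and 21 (1.53%) at least 2-fold lower.

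The largest of these differences were in genes of secretory cells, and few cells carried them. The mucus lectin *Zg16* was higher in ROBO members (833 UMIs against 131, log2 ratio 2.87), where 1 cell held 97.5% of its UMIs. Without that cell 21 UMIs were left and the log2 ratio turned to -2.40 (-3.14 to -1.73). In the other cells *Zg16* was higher in ROBO, at 2.42 (2.30 to 2.53). The Paneth genes *AY761184* (2.45), *Gm15315* (1.84) and *Defa22* (1.79), and *Rnase1* (2.01), were the others, and in ROBO members 1 cell held 50.9%, 49.2%, 57.8% and 38.1% of the UMIs. Without the 1 cell with the most UMIs of each gene their log2 ratios were 1.45, 0.88 (0.05 to 1.74), 0.56 (-0.12 to 1.25) and 1.35. In the other cells their log2 ratios of ROBO over WT were -0.77 (-1.04 to -0.51), 0.00 (-0.59 to 0.59), -0.84 (-1.15 to -0.54) and -0.34 (-0.76 to 0.08). Lower in ROBO members were the granule genes *Chga* (1 UMI against 170, log2 ratio -7.20, -12.5 to -4.71) and *Chgb* (8 against 150, -4.02), and the UMIs of *Chga* lay in 6 members. Also lower were *Mptx2* (-5.17) and *Mptx1* (-2.82). Without the WT member with the most UMIs of each, *Chga* was at -6.47, *Chgb* at -3.02, *Mptx2* at -2.49 (-4.89 to -0.73) and *Mptx1* at -1.93. The fifth was *Rn45s*, the precursor of ribosomal RNA, with 84 UMIs in 32 ROBO members and 325 in 56 WT members, a log2 ratio of -1.75 (-2.11 to -1.40). A single cell held 35.1% of its UMIs in WT members and 19.05% in ROBO members, and without that WT cell the log2 ratio was -1.13 (-1.51 to -0.76). In the other cells its log2 ratio of ROBO over WT was -0.24 (-0.37 to -0.11). *Mptx1*, *Mptx2* and *Chgb* were lower in ROBO among the other cells too, at -4.04 (-5.01 to -3.20), -1.47 (-2.67 to -0.40) and -0.64 (-0.99 to -0.30), whereas *Chga* was higher there, at 1.28 (0.67 to 1.90).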

How the data were processed

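Single cells of crypt-enriched mouse small intestine were captured on a BioRad ddSEQ with a 3′ kit that counts UMIs, and the authors made gene matrices in BaseSpace. The authors deposited raw counts (UMIs per gene and cell), not normalized, as 1 matrix per genotype; the submitters' processing notes name the builds mm10 and GRCm38, and the aligner is not given in the sources used here. WT held 1348 cells and 2682127 UMIs (533 to 11908 per cell) and ROBO 1249 cells and 2428435 UMIs (463 to 13756). The matrices list 24421 genes. Cell names give no barcode, so shared barcodes could not be counted. No cell of one genotype had the same counts as a cell of the other.

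The members, gene lists and markers were chosen with earlier results of these data known. Counts were summed over the cells of a group and scaled to 10000 UMIs of that group. Genes needed 50 UMIs over both groups, and a difference was called at 2-fold with no test. Intervals are exact Clopper-Pearson, Newcombe, Poisson or conditional exact, at 95% (scipy 1.17.1). For sums of 0 a floor of 3 counts over the group was used. Clustering used Seurat 5.3.0 (2000 variable genes, 20 principal components, resolution 0.8, S and G2M scores regressed out), and the methods name version 2 of it. Scrublet (scanpy 1.11.5) ran at a doublet rate of 5%. Genes named are the rule genes, the 10 largest ratios in each direction that were at least 2-fold in both genotypes, the 3 with most UMIs and the 3 with the largest ratio of each list, and the 5 largest ratios of ROBO over WT members in each direction. Others are named where said, or as examples of a list, and a few genes that the rule names are not reported here. Scripts were tested on simulated counts.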

Additional observations from a re-analysis of the deposited data

Results flagged for a closer look

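*Chga*, a granule protein of enteroendocrine cells, differed from the other cells in opposite directions in the 2 genotypes. WT members stood above other WT cells by 5.85 on the log2 scale, and ROBO members stood below other ROBO cells, at -2.63, and neither counting interval reached 0. The difference was not tested, since each genotype is 1 pooled sample. Its UMIs lay in 5 WT members and 1 ROBO member, and 40.6% of those in WT members came from 1 cell.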

How the results depend on the processing

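No paired analysis was possible because the cells are not linked to the numbered samples of either genotype; for the same reason no sample could be left out in turn. The difference of the share of members between genotypes stayed within its interval under all 9 alternatives, between -0.582 and 1.28 percentage points. The number of genes at least 2-fold higher and lower in members, 313 and 583, was 504 and 1252 with the 90 cells of highest score, 480 and 1017 with no minimum of UMIs, and 115 and 92 with at least 200 UMIs per gene. With at least 20 UMIs per gene 563 were higher. The number lower was 202 with the 360 cells of highest score and 354 with at least 1500 UMIs per cell. Of the 22 other immediate-early factors, 16 were at least 2-fold higher, and between 13 and 17 under the alternatives apart from 2. Those 2 were levels read from the set of UMIs not used to choose members (10) and at least 200 UMIs per gene (9). In both, fewer of the factors reached the minimum of UMIs per gene. Whether smaller ratios also lowered the first of these numbers was not tested. The number of feedback and ligand genes stayed between 10 and 16. Between genotypes, 28 higher and 21 lower genes became 16 and 12 with the 90 cells of highest score and 190 and 215 with at least 20 UMIs per gene, and 47 were lower with 360 cells. The largest number of members in 1 cluster, 58, was 38 with the rule genes and all stress lists left out of the variable genes. For 81 named genes, 881 of 1038 ratios of members over other cells under alternatives stayed in the interval, 1019 kept their direction and 6 called ratios reversed, all of them given next. With 360 cells *Gip* was at 0.97, *Ccl5* at 0.079 and *Gzmb* at 0.75, and with a score without *Fos* and *Jun* *Gzma* was at 1.07, *Ccl5* at 1.60 and *Gzmb* at 2.18. An alternative chosen after seeing the data left out, for each of the 10 genes named for ROBO over WT members, the member with the most UMIs in the genotype where the gene was higher. *Zg16* reversed, to -2.40, and the other 9 kept their direction, with *Defa22* at 0.56 and *Gm15315* at 0.88 under 2-fold. Depth limits single genes, since 50 UMIs over both groups leave few in 180 cells.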
